A study of Homo sapiens with 4 samples.

Results

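Chromosome 2 had the fewest GSK2879552 peaks per vehicle peak of any autosome in an ATAC-seq comparison of LNCaP cells, and it is described here along its length. It was chosen by that peak ratio. Its members are all listed peaks whose chromosome column reads chr2, 13117 with vehicle and 9964 with GSK2879552, together 23081 of the 358286 rows in both lists. Each peak was placed in 1 of 25 fixed bins of 10 Mb by its summit, and no peak was dropped. Summits ran from position 10232 to position 243185004 (hg19, counted from 1), so the last bin holds only 3.19 Mb.

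LNCaP is a human cell line grown from a prostate cancer metastasis, and its growth responds to androgen. Vehicle cells were compared with cells given GSK2879552, a compound that inhibits LSD1 (KDM1A), a histone demethylase. The treatment text, identical for all 4 samples, gives 50 µM for 4 hours in RPMI1640 with 5% CSS, after maintenance in medium with 10% FBS. Each condition has 2 lanes, which the labels call technical replicates, and 1 peak list, so there is 1 library per condition, no replicate check and no test between conditions. All intervals below are exact 95% intervals for counting error only, except that of the median log2 tag ratio, which is taken over pairs. In a bulk library, fewer cells with an open site and less opening per cell cannot be told apart. The cell line label was not checked against marker genes, since no gene positions in hg19 were used.

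ATAC-seq uses a transposase that inserts sequencing adapters into accessible DNA, so that tags pile up at promoters, enhancers and other open sites. LSD1 removes methyl groups from histone H3 as part of the CoREST complex, and it also takes part in androgen receptor transcription in prostate cells. A peak caller lists a site when its tags exceed a background, which is either the average over the genome or, where higher, the tag density of the neighbourhood. Chromosome 2 is a large chromosome known to have arisen by the fusion of ancestral ape chromosomes, and it carries both gene-dense and gene-poor stretches.

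The peak ratio chose the chromosome, so it is a description and supports nothing. Chromosome 2 had 0.760 GSK2879552 peaks per vehicle peak (0.740 to 0.780). The next lowest autosome, just outside the choice, was chromosome 13 at 0.801, and the others reached 0.902 on chromosome 19. Chromosome X, which is not an autosome, was lower than chromosome 2 at 0.671 (0.642 to 0.701). Chromosome 1 had 0.841 (0.823 to 0.860), with 14931 against 17750 peaks. Chromosome 3, which is close to chromosome 2 in its number of vehicle peaks, had 0.828 (0.807 to 0.850), with 10796 against 13034 peaks. By length covered, peaks of chromosome 2 spanned 3283 kb with vehicle and 2285 kb with GSK2879552, a ratio of 0.696, against 0.752 on chromosome 1 and 0.743 on chromosome 3. Before the longest peak-free stretch the peak ratio was 0.764 (0.732 to 0.797) and after it 0.757 (0.733 to 0.783), so the low ratio was found on both sides.

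All 25 bins of chromosome 2 held fewer GSK2879552 than vehicle peaks, but by very different amounts. The lowest ratio was 0.596 (0.490 to 0.724) at 50 to 60 Mb, with 170 against 285 peaks. At 140 to 150 Mb it was 0.640 (0.537 to 0.761), with 217 against 339 peaks. At 160 to 170 Mb it was 0.656 (0.570 to 0.755), with 334 against 509 peaks. The highest ratio was 0.980 (0.830 to 1.16) in the short last bin from 240 Mb, with 289 against 295 peaks. The bin at 90 to 100 Mb, which holds the longest peak-free stretch, followed at 0.953 (0.845 to 1.08), with 532 against 558 peaks. At 130 to 140 Mb the ratio was 0.874 (0.775 to 0.986), with 515 against 589 peaks. The intervals of the first 2 of these highest bins include 1. Those of the 3 lowest bins lie below the 0.828 of chromosome 3 as a whole, whose own bins ran from 0.748 to 0.902. The 3 bins were picked as the lowest of a chromosome chosen for this ratio, so nothing is read from that.

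**Figure D1:**
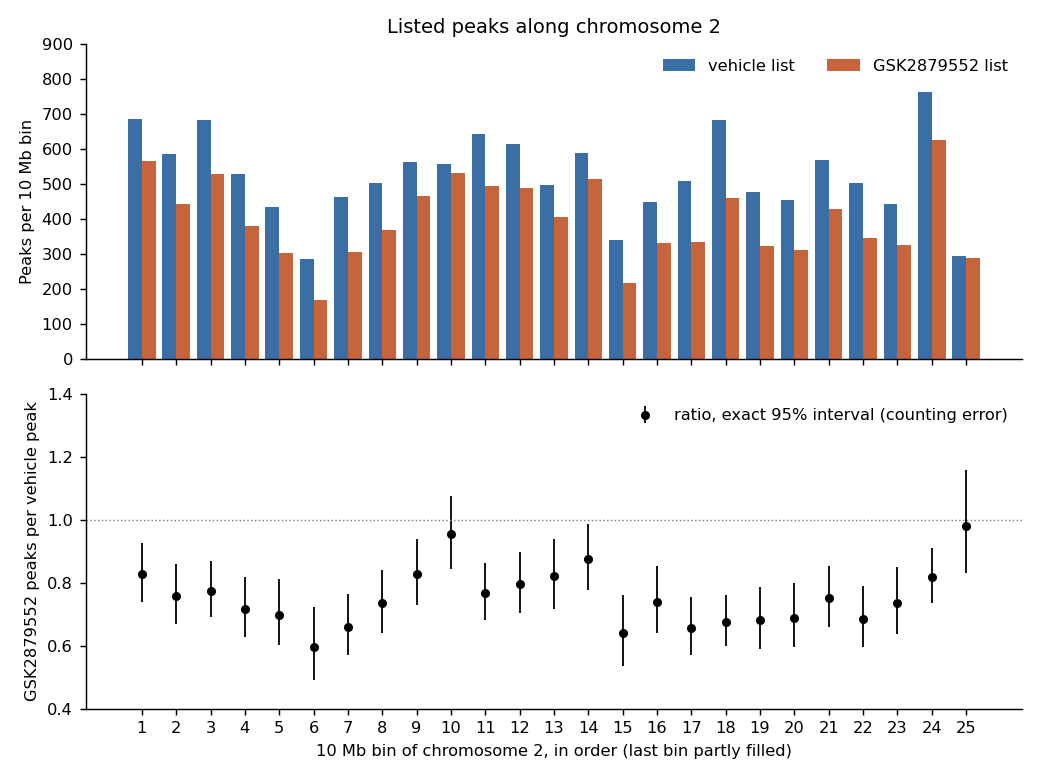
Top, number of listed peaks in each of the 25 bins of 10 Mb along chromosome 2 for the vehicle and the GSK2879552 list. Bottom, GSK2879552 peaks per vehicle peak in the same bins with exact 95% intervals for counting error; the ratio is 0.596 in bin 6 (50 to 60 Mb), 0.953 in bin 10 (90 to 100 Mb) and 0.980 in bin 25 (from 240 Mb).

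Low bins lay next to each other. A peak ratio under 0.75 was found in 13 of the 25 bins of chromosome 2, in 2 of 24 on chromosome 1 and in 1 of 20 on chromosome 3. Over chromosomes 1 to 22, X and Y, 13.4% of the 313 bins with at least 20 peaks in each list fell under that level, which was chosen after the values were seen. On the autosomes other than chromosome 2, 15 of 268 bins did. Since the ratio chose the chromosome, nothing is read from this excess. The low bins formed 3 runs. Over the 5 bins from 30 to 80 Mb, 1528 against 2215 peaks gave 0.690 (0.646 to 0.737). The 6 bins from 140 to 200 Mb held 1980 against 2908 peaks, a ratio of 0.681 (0.643 to 0.721). From 210 to 230 Mb, 671 against 946 peaks gave 0.709 (0.642 to 0.784). Chromosome 2 supplied 6 of the 10 and 13 of the 20 lowest of the 293 autosomal bins, and the others among the 10 were on chromosomes 4, 13 and 21.

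Peaks found under GSK2879552 alone were few on chromosome 2, while the share of vehicle peaks that found a partner was close to that of its neighbours in size. A partner is a peak of the other list that overlaps by at least 1 bp. Of the vehicle peaks of chromosome 2, 60.1% (59.3 to 61.0) had a partner, against 62.0% on chromosome 1 and 60.8% on chromosome 3. The 5228 vehicle peaks without one are 39.9% of its vehicle list, and 38.5% of all vehicle peaks on chromosomes 1 to 22, X and Y had none. Of its GSK2879552 peaks, 82.4% (81.6 to 83.1) had a vehicle partner, against 77.3% (76.7 to 78.0) on chromosome 1 and 76.3% (75.5 to 77.1) on chromosome 3. The 1755 without one are 17.6% of its GSK2879552 list, where 23.5% of all GSK2879552 peaks on these chromosomes had none. Among the other autosomes this share ran from 17.2% on chromosome 17 to 28.8% on chromosome 18, and on chromosome X it was 10.8%. When only peaks reaching a −log10 q of 5 were kept in each list, the difference was small: 93.6% of GSK2879552 peaks had a partner on chromosome 2, 92.9% on chromosome 1 and 93.0% on chromosome 3.

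The peak ratio can be divided into GSK2879552 peaks with and without a partner, each per vehicle peak. Peaks with a partner gave 0.626 on chromosome 2, 0.651 on chromosome 1 and 0.632 on chromosome 3. Peaks without a partner gave 0.134 on chromosome 2, 0.191 on chromosome 1 and 0.196 on chromosome 3. Against chromosome 3 the ratio was lower by 0.0687, of which peaks without a partner made up 90.5%. Against chromosome 1 they made up 69.6%. The 21 other autosomes ranged from 0.146 to 0.256 in peaks without a partner and from 0.608 to 0.739 in peaks with one. Chromosome 2 was below the first range and inside the second. The parts add up to the value that chose the chromosome, so they only describe it, and nothing is read from these differences.

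Along chromosome 2 the GSK2879552 peaks without a partner spanned a smaller range of counts per bin than the vehicle peaks without one, but a wider range relative to their median. The former ran from 19 to 159 per bin with a median of 65, against medians of 140.5 on chromosome 1 and 121.5 on chromosome 3. The latter ran from 99 to 305 with a median of 209, against 302 and 255. At 50 to 60 Mb only 19 GSK2879552 peaks lacked a partner, and at 60 to 70 Mb 23 did, which left 92.5% of the peaks of that second bin with one. At 40 to 50 Mb there were 32 and at 70 to 80 Mb 37. The first bin, at 0 to 10 Mb, held the most, 159, or 28.1% (24.4 to 32.0) of its GSK2879552 peaks. The bins at 230 to 240 Mb and 90 to 100 Mb followed with 138 and 129. In each of the 25 bins the vehicle peaks without a partner outnumbered the GSK2879552 peaks without one. The share of GSK2879552 peaks without a partner was 11.5% (9.96 to 13.2) over 30 to 80 Mb, 15.4% (13.8 to 17.1) over 140 to 200 Mb and 13.4% (10.9 to 16.2) over 210 to 230 Mb.

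**Figure D2:**
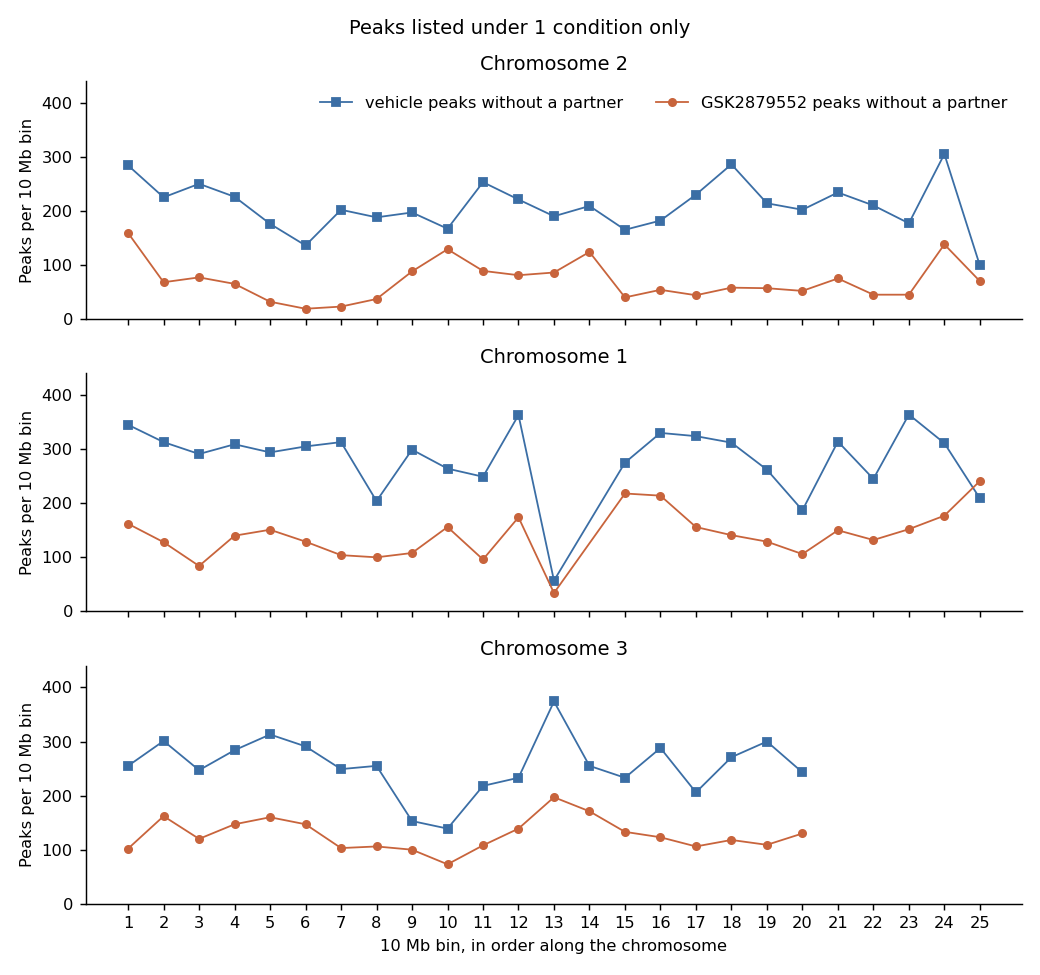
Peaks without a partner in the other list in each bin of 10 Mb along chromosome 2, for the vehicle and the GSK2879552 list. GSK2879552 peaks without a partner number 19 to 159 per bin and vehicle peaks without one 99 to 305.

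The background of each peak was recovered from its deposited fold and p. It is the number of tags the caller allowed for at the summit, and its lowest value, 2.31 tags for vehicle and 2.72 for GSK2879552, is the average over the genome. Peaks at that lowest value lie where tags are no denser nearby than over the genome. On chromosome 2 they made up 53.6% (52.7 to 54.4) of vehicle peaks, against 33.0% on chromosome 1 and 46.1% on chromosome 3. Among the other autosomes the share ran from 9.73% on chromosome 22 to 56.9% on chromosome 4, and on chromosome X it was 71.3%. In the GSK2879552 list the share was 49.3% (48.3 to 50.3) on chromosome 2, against 32.7% and 46.1%. The mean background was 3.28 tags for vehicle and 3.76 for GSK2879552 peaks of chromosome 2, or 1.42 and 1.39 times the genome-wide value of the same list. By the share of peaks at the genome-wide background it was the third highest autosome for vehicle and the fourth highest for GSK2879552.

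The background changed along chromosome 2 in nearly the same order in both lists, with a Spearman correlation of 0.98 over 25 bins for the share of peaks at the genome-wide value. The highest median was in the last bin from 240 Mb, 4.33 tags for vehicle and 4.95 for GSK2879552. Second was 90 to 100 Mb, with 3.73 and 4.51 tags, and this bin also held the single highest backgrounds of the chromosome, 40.5 and 45.3 tags. In the vehicle list 230 to 240 Mb took the third place with 2.92, and in the GSK2879552 list 20 to 30 Mb did with 3.46. The lowest medians cannot be ranked, because 14 bins for vehicle and 13 for GSK2879552 had their median at the genome-wide value itself, 50 to 60, 140 to 150 and 160 to 170 Mb among them. By share of vehicle peaks at that value, the bins ran from 8.81% from 240 Mb to 87.6% at 140 to 150 Mb. In the GSK2879552 list the same 2 bins had 9.0% and 88.0%.

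**Figure D3:**
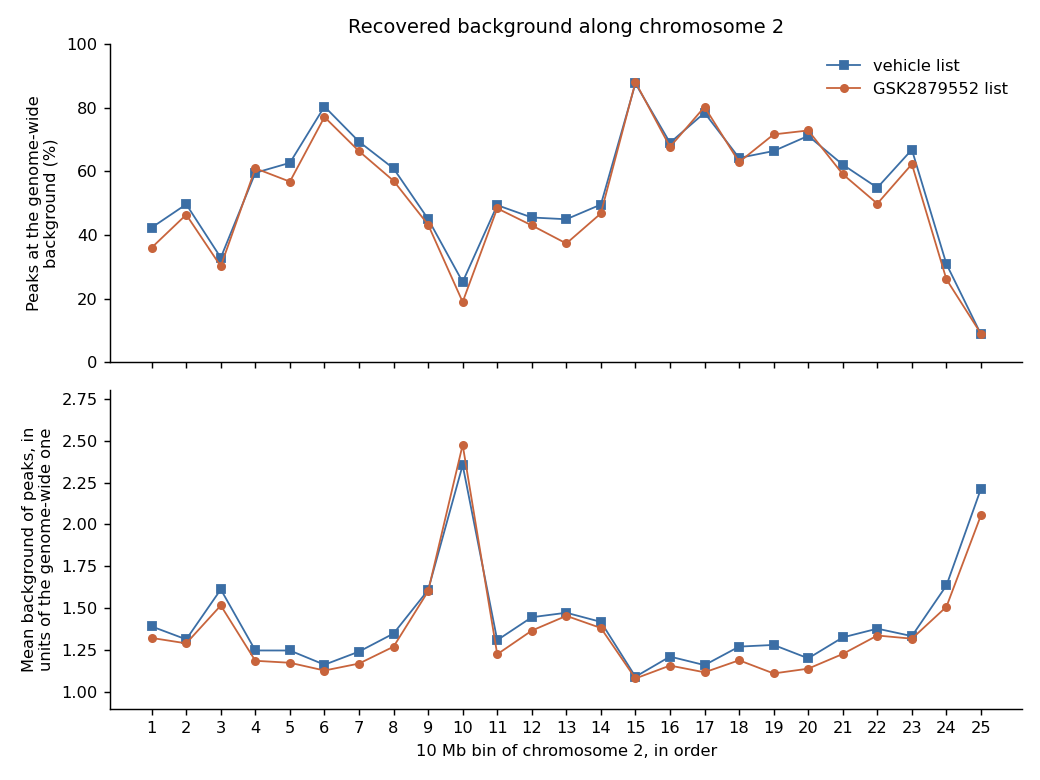
Background along chromosome 2 by bins of 10 Mb. Top, share of the peaks of each list at its own genome-wide background in percent, which runs from 8.81% to 87.6% for vehicle. Bottom, mean background of the peaks of each list in multiples of its own genome-wide background.

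The bins of chromosome 2 with more of their peaks at the genome-wide background tended to have lower peak ratios. Over its 25 bins the Spearman correlation of the peak ratio with the share of vehicle peaks at that background was -0.89 and Pearson's was -0.90. On chromosome 1 they were -0.63 and -0.39 over 24 bins, and on chromosome 3 -0.17 and -0.17 over 20 bins. These are descriptions. Bins share 2 libraries, their neighbours and their sequence makeup, and the share and the ratio come from the same vehicle peaks. The number of GSK2879552 peaks without a partner went with the share on chromosome 2 at a Spearman correlation of -0.82, and the number of vehicle peaks without one at -0.23. Those 2 correlations were -0.42 and -0.44 on chromosome 1 and -0.72 and -0.83 on chromosome 3.

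Bins of like background on other chromosomes give the values to set beside these. Bins with at least 60% of vehicle peaks at the genome-wide background, a level chosen after the values were seen, numbered 12 on chromosome 2, 2 on chromosome 1 and 6 on chromosome 3. In the 12 on chromosome 2 the peak ratio ran from 0.596 to 0.751 with a median of 0.685. In the 6 on chromosome 3 it ran from 0.807 to 0.870, and the 2 on chromosome 1 had 0.815 and 0.818. In all 58 such bins on autosomes other than chromosome 2, those of chromosomes 1 and 3 included, it ran from 0.635 to 0.977. Of these 58, 10 were under 0.75, so they overlap the bins of chromosome 2. Since chromosome 2 was chosen for this ratio, nothing is read from the contrast. GSK2879552 peaks without a partner numbered 19 to 75 per bin on chromosome 2 with a median of 44.5, 100 and 106 on chromosome 1 and 73 to 139 on chromosome 3. Of the 8 bins of chromosomes 1 and 3, 1 was at or under 75. Vehicle peaks without a partner had medians of 195 on chromosome 2, 195.5 on chromosome 1 and 212 on chromosome 3. The same 58 bins, again with those of chromosomes 1 and 3, held 36 to 227 GSK2879552 peaks without a partner, with 10 of the 58 at or under 75. Low counts of this kind thus occurred on other autosomes too, and chromosome 2 held 7 of the 10 low-background autosomal bins with the fewest. GSK2879552 peaks without a partner enter the ratio that chose chromosome 2, and 75 is the highest count of its own bins. Nothing is therefore read from these counts either.

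**Figure D4:**
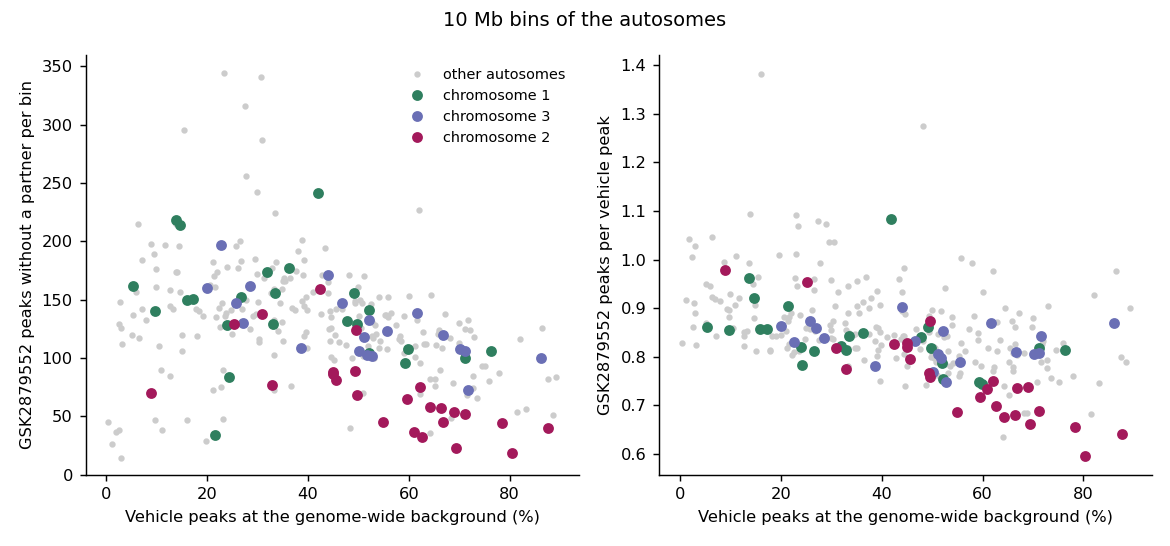
Each point is a 10 Mb bin of an autosome, coloured for chromosomes 1, 2 and 3 and grey for the others. The horizontal axis gives the share of vehicle peaks at the genome-wide background in percent. The vertical axis gives GSK2879552 peaks without a partner on the left and GSK2879552 peaks per vehicle peak on the right. At shares of 60% or more, chromosome 2 bins hold 19 to 75 GSK2879552 peaks without a partner and chromosome 3 bins 73 to 139.

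Peaks can also be counted by their own background, as a description of the value that chose the chromosome. Each peak was classed by the background of its own list, and that background differed between the lists at many sites, so the counts do not compare the same sites. Among peaks at the genome-wide background it had 4913 with GSK2879552 and 7027 with vehicle, a ratio of 0.699 (0.674 to 0.725). That ratio was 0.834 on chromosome 1, 0.829 on chromosome 3 and 0.834 over all autosomes but chromosome 2, chromosomes 1 and 3 included. Of the 4913 GSK2879552 peaks 19.7% (18.6 to 20.8) had no partner, against 33.8%, 31.4% and 33.6% in the same order. Among peaks above the genome-wide background the ratio was 0.829 (0.799 to 0.861), with 5051 against 6090 peaks. There it was 0.845 on chromosome 1 and 0.827 on chromosome 3, both inside that interval, and chromosome 2 was the fourth lowest autosome. GSK2879552 peaks without a partner made up 15.6% of this class on chromosome 2, 17.3% on chromosome 1 and 17.0% on chromosome 3.

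Peak strength, as summit tags in multiples of the list's own genome-wide background, gives classes in which the peaks can be counted. Peaks were classed by the tags of their own list, and sites listed in both had fewer tags with GSK2879552, so a site can be in a lower class there and a class does not hold the same sites in both lists. Under 5 times the background, the weakest class, chromosome 2 had 1875 GSK2879552 and 1105 vehicle peaks, a ratio of 1.70 (1.57 to 1.83), against 1.90 on chromosome 1 and 2.06 on chromosome 3. In that class 56.0% (53.7 to 58.3) of the GSK2879552 peaks had no partner, against 67.1% and 65.2%. From 5 to 6 times the ratio was 1.29, against 1.48 and 1.35, and 25.6% had no partner, against 39.6% and 35.7%. From 6 to 8 times, 1993 against 3034 peaks gave 0.657 (0.620 to 0.695), with chromosome 1 at 0.731 and chromosome 3 at 0.686. From 8 to 10 times it was 0.716, against 0.838 and 0.728, and from 10 to 15 times 0.611, against 0.721 and 0.666. At 15 times or more, 1299 against 3054 peaks gave 0.425 (0.398 to 0.454), with chromosome 3 at 0.441 and chromosome 1 at 0.491. Chromosome 2 had the lowest ratio of the 3 chromosomes in each of the 6 classes. The classes divide the peaks whose ratio chose the chromosome, so nothing is read from that order. GSK2879552 peaks outnumbered vehicle peaks in both classes under 6 times on all 3 chromosomes, and by the least on chromosome 2. From 10 to 15 times the order of the shares was the other way: 32 of 1532 GSK2879552 peaks of chromosome 2 had no partner, 2.09% (1.43 to 2.94), against 1.03% on chromosome 1 and 0.641% on chromosome 3. With only peaks of 6 times or more, the ratio was 0.591 on chromosome 2, 0.611 on chromosome 3 and 0.659 on chromosome 1, and chromosome 2 was then the third lowest autosome. Of the 1755 GSK2879552 peaks of chromosome 2 without a partner, 1050 were under 5 times and 469 from 5 to 6 times.

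**Figure D5:**
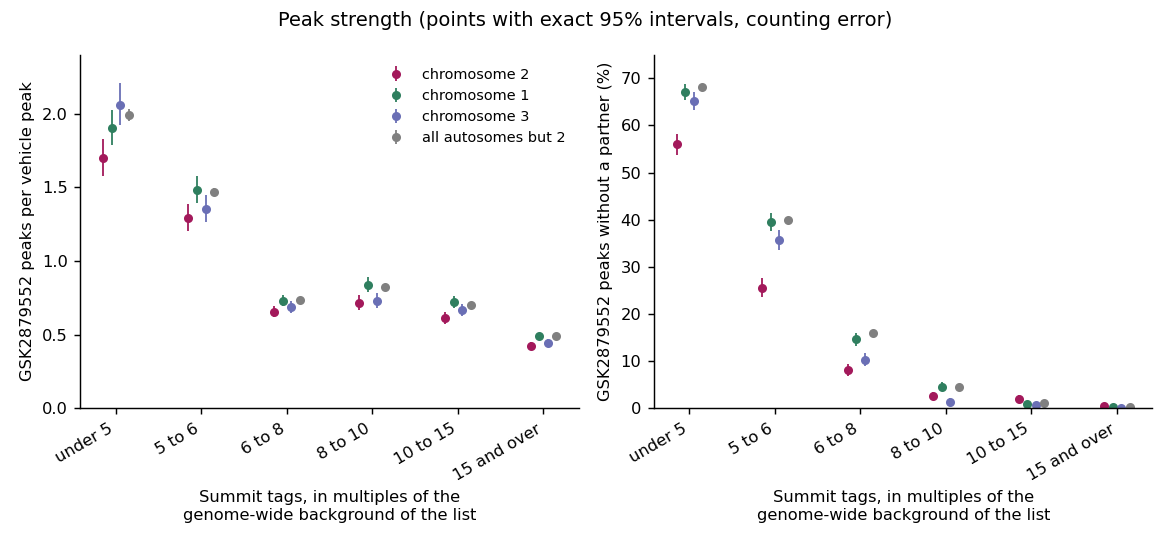
GSK2879552 peaks per vehicle peak, and the share of GSK2879552 peaks without a vehicle partner in percent, by class of summit tags in multiples of each list's genome-wide background. Points are chromosomes 1, 2 and 3 and all autosomes but chromosome 2, with exact 95% intervals for counting error. In the weakest class chromosome 2 lies lowest in both, at 1.70 and 56.0%.

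Sites listed in both conditions had fewer tags with GSK2879552, by a ratio on chromosome 2 that was close to those of the other autosomes. There were 7440 pairs there, each a vehicle and a GSK2879552 peak that overlapped each other and nothing else in the opposite list, with a median of 29 summit tags for vehicle and 21 for GSK2879552. After division by the ratio of the genome-wide backgrounds, 1.18, the median log2 tag ratio of GSK2879552 to vehicle was -0.58 (-0.59 to -0.57, the interval of the median over pairs), and the quartiles of the pairs were -0.78 and -0.38. On chromosome 1 it was -0.56, on chromosome 3 -0.57, and on the other autosomes -0.58 to -0.52. The scaled ratio was below 1 in 7017 pairs, 94.3%, and 94.2% of all pairs on chromosomes 1 to 22, X and Y were so. Without scaling the share was 83.6%. Being listed in both lists is a condition for these pairs, so sites below the caller's limit in either library do not enter them.

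By bin the summed tags of pairs gave scaled ratios in a narrow range. The lowest were 0.646 at 180 to 190 Mb, 0.649 at 60 to 70 Mb and 0.649 at 40 to 50 Mb. The highest were 0.745 at 90 to 100 Mb, 0.708 from 240 Mb and 0.701 at 130 to 140 Mb, the 3 bins with the highest peak ratios as well. Over the 25 bins the Spearman correlation of the median log2 tag ratio with the peak ratio was 0.81, on chromosome 1 0.85 and on chromosome 3 0.24, again as descriptions. The median log2 ratio was -0.61 over 30 to 80 Mb, -0.61 over 140 to 200 Mb and -0.59 over 210 to 230 Mb.

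The background under paired peaks moved as well. In 3465 pairs of chromosome 2 both peaks lay above the genome-wide background, and the median log2 ratio of their backgrounds, scaled in the same way, was -0.19, against -0.18 on chromosome 1 and -0.17 on chromosome 3. Within chromosome 2 it was -0.35 in 405 pairs at 30 to 80 Mb, -0.40 in 378 pairs at 140 to 200 Mb and -0.22 in 202 pairs at 210 to 230 Mb. By bin it ran from -0.65 at 180 to 190 Mb to -0.03 at 90 to 100 Mb, while bins ran from -0.30 to -0.07 on chromosome 1, from -0.34 to -0.08 on chromosome 3 and from -0.60 to 0.06 on the other autosomes. The bin at 140 to 150 Mb rests on 15 such pairs. In 666 of the 7440 pairs of chromosome 2 the background was at the genome-wide value with GSK2879552 alone, and in 170 with vehicle alone. Over chromosomes 1 to 22, X and Y these counts were 8207 and 2928 of 110134 pairs. They were 753 and 270 of 10249 on chromosome 1 and 660 and 233 of 7422 on chromosome 3, so the imbalance was not particular to chromosome 2. The part of the background shift in the peak ratio was not tested.

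Single pairs with large changes were rare. Chromosome 2 had 848 pairs whose tags summed to 100 or more. Of these 4, or 0.472%, had a scaled log2 ratio below -1, against 0.244% of all such pairs on chromosomes 1 to 22, X and Y. The lowest ratio was at chr2:37048276-37048743, with 69 vehicle and 36 GSK2879552 tags and a scaled ratio of 0.444 (0.288 to 0.673). Next were chr2:96191997-96193119, with 66 and 38 tags and 0.490 (0.320 to 0.741), and chr2:172750624-172751155, with 71 and 41 tags and 0.491 (0.326 to 0.731). All 3 intervals overlap the 0.673 of the summed pairs of the chromosome. All positions are those of the vehicle peak in hg19, counted from 1.

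In the other direction, 12 of the 848 pairs, 1.42%, had a scaled ratio above 1, where 0.813% of all such pairs did. The highest was chr2:5162712-5162992, with 42 vehicle and 64 GSK2879552 tags and a ratio of 1.30 (0.865 to 1.96). It was followed by chr2:92290465-92291214, with 57 and 84 tags and 1.25 (0.885 to 1.79), and by chr2:92308465-92308655, with 63 and 84 tags and 1.13 (0.808 to 1.60). All 3 intervals include 1. The second and the third of these lie shortly before the longest peak-free stretch, and 6 of the 12 pairs were in the bin at 90 to 100 Mb. Those of the 12 starting at 89868225, 89872069 and 89879076 lay just before that bin. How many of the 848 pairs lay in the bin was not counted, so nothing is read from its 6. Backgrounds with vehicle and GSK2879552 were 9.03 and 10.65 tags for the second pair. For the third they were 26.8 and 31.4 tags, over 10 times the genome-wide value of each list. The first pair had 2.31 and 3.13 tags, the former being the genome-wide value. How uniquely reads map near the longest peak-free stretch was not tested.

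The strongest vehicle peaks without a partner all lay at the genome-wide background. They were chr2:148272886-148273065 with 36 tags (25.2 to 49.8), chr2:165192566-165192754 with 34, chr2:182973774-182974039 with 34, chr2:36198354-36198510 with 33 and chr2:13712196-13712355 with 32. The nearest GSK2879552 peak was 2758, 21587, 29539, 418 and 39023 bp away in the same order, so the fourth has a GSK2879552 peak close by and the others have none within 2 kb. The first 3 of the 5 lie in the run of low bins at 140 to 200 Mb, and the fourth lies in that at 30 to 80 Mb.

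The GSK2879552 peaks without a partner were weaker by their own list's p. The first was chr2:242838656-242838909 with 40 tags over a background of 7.18, only 38 bp from a vehicle peak. Then came chr2:89875940-89876047 with 65 tags over 21.2 and a vehicle peak at 542 bp, and chr2:200523965-200524299 with 22 tags at the genome-wide background and no vehicle peak within 33057 bp. The last were chr2:162136364-162136501 with 39 tags over 9.49, 204 bp from a vehicle peak, and chr2:48841618-48841987 with 21 tags at the genome-wide background, a value it shares with other peaks, 7946 bp from one. In 3 of the 5 a vehicle peak lay within 1 kb.

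The widest peaks of chromosome 2 were 1683 to 1861 bp for vehicle and 1421 to 1611 bp for GSK2879552. For vehicle they were chr2:27272872-27274732 (1861 bp, 83 tags), chr2:18059662-18061446 (1785 bp, 77 tags), chr2:97534302-97536070 (1769 bp, 55 tags), chr2:203499278-203501019 (1742 bp, 101 tags) and chr2:243152455-243154137 (1683 bp, 74 tags). The first overlapped 3 GSK2879552 peaks, the fourth 1 and the other three 2 each. For GSK2879552 the widest were chr2:203499302-203500912 (1611 bp, 101 tags), chr2:153573870-153575402 (1533 bp, 79 tags), chr2:196521543-196523024 (1482 bp, 53 tags), chr2:112811747-112813206 (1460 bp, 91 tags) and chr2:20550127-20551547 (1421 bp, 68 tags). The site near 203.5 Mb was in both sets, with 101 tags in each library before scaling. The median width was 186 bp for vehicle and 171 bp for GSK2879552 peaks of chromosome 2, and the median summit tags were 21 and 19.

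Neither list had a summit in some stretches of chromosome 2. The longest lay between positions 92326107 and 95364483, 3.04 Mb, and the second between 90536028 and 91595709, 1.06 Mb. The next were 347 kb from 22578846 to 22926304 and 332 kb from 199239298 to 199571643. Whether the build has sequence that reads can map to in these stretches was not checked, since no genome of hg19 was used. Their lack of summits is therefore not read as a lack of open sites. The median distance between neighbouring summits of either list was 1.87 kb, and 12 of 23080 distances exceeded 250 kb.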

How the data were processed

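ATAC-seq of LNCaP cells was analysed from 2 deposited peak lists, vehicle and GSK2879552, each naming both lanes of its condition (4 samples, 2 lists). The submitters' processing notes name MACS2 2.1.2, BWA 0.7.2, SAMtools 0.1.18 and the build hg19 (GRCh37), with no settings or order. Each list holds a deposited score, a deposited fold ratio over background, and deposited −log10 p and −log10 q values. Read counts were not used and sequencing depth is known only relatively: the genome-wide backgrounds, 2.31 and 2.72 tags, put the GSK2879552 library 17.6% above vehicle.

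Whole summit tags and background were recovered per peak by taking fold as (tags + 1) / (background + 1) and p as the Poisson upper tail, within a tolerance of 0.001. The recovery was tested on simulated data. Local backgrounds are multiples of 0.01. A peak counted as at the genome-wide background when it equalled that value. Partners overlap by at least 1 bp and pairs overlap exactly 1 peak each. Intervals at 95% are exact binomial for ratios and shares and exact Poisson for the tags of single peaks. That of the median log2 tag ratio is by order statistics over pairs. Tags of neighbouring positions are shared and PCR duplicates are not molecules, so the binomial and Poisson intervals cover counting error only. The named bins are the 3 lowest and 3 highest by peak ratio, background and tag ratio. The named regions are the 5 strongest unpartnered and the 5 widest peaks per list, the 3 lowest and 3 highest pairs of at least 100 tags, and the 5 longest summit-free stretches, of which 1 is not reported here. The members, bins and lists were chosen with earlier results of these data known. Alternatives were equally long lists, a −log10 q minimum of 5, 50% reciprocal overlap, summits within 250 bp, bins of 5 and 20 Mb, no depth scaling and background subtraction. Python 3.11.15, NumPy 2.4.6, pandas 2.3.3, SciPy 1.17.1 and Matplotlib 3.10.9 were used. No genome of hg19 was used, so no sequences or genes are given.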

Additional observations from a re-analysis of the deposited data

How the results depend on the processing

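The peak ratio of chromosome 2, 0.760, was 0.665 with a −log10 q of at least 5 and 0.861 with lists of equal length, and chromosome 2 was the lowest autosome in both. At the stricter q chromosome 3 had 0.685, inside the interval of chromosome 2 (0.645 to 0.686). With alternatives chosen after seeing the data it was 0.591 for peaks of at least 6 times the genome-wide background (rank 3 from the lowest of 22 autosomes), 0.699 for peaks at that background (rank 1) and 0.829 above it (rank 4). Leaving out each bin in turn gave 0.751 to 0.764. The highest bin ratio, 0.980, was 0.809 at the stricter q and 1.17 with bins of 5 Mb, there at 90 to 95 Mb. The lowest bin ratio stayed within its interval under all its alternatives, 0.538 to 0.669. Its place changed with bins of 5 Mb, where the lowest was 0.567 at 210 to 215 Mb. The share of vehicle peaks with a partner, 60.1%, was 52.2% at 50% reciprocal overlap and 65.6% with equal lengths. That of GSK2879552 peaks, 82.4%, was 68.7% at reciprocal overlap, 79.3% by summits within 250 bp, 93.6% at the stricter q and 79.5% with equal lengths. The share at the genome-wide background was 49.4% for vehicle and 45.3% for GSK2879552 at the stricter q, and 55.6% and 51.8% over 5 Mb from the outermost peaks. The median log2 tag ratio, -0.58, was -0.34 without scaling, -0.64 with background subtracted and -0.59 for pairs of at least 60 tags. The median of 44.5 GSK2879552 peaks without a partner in low-background bins was 60 by summits within 250 bp. The stricter settings list fewer weak peaks by construction; the cause of the other shifts was not tested. No paired analysis was possible because each condition has 1 peak list. Depth limits what can be listed: the weakest listed summits of chromosome 2 had 8 tags for vehicle and 9 for GSK2879552, and sites below the caller's limit are not analysed here.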
